A study of Homo sapiens with 4 samples.

Results

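The miR-99, miR-100 and miR-125 genes form 3 paralogous clusters in the human genome. Small RNA reads counted at these genes were followed here in human HEK293T cells, a line derived from embryonic kidney. The labels also write HEK293. The genes were found by symbol from the Ensembl identifiers of the deposited tables: MIR125B1 and MIR100 on chromosome 11, MIR99B and MIR125A on chromosome 19, and MIR99A and MIR125B2 on chromosome 21. All 6 were present among the 7062 listed features, and all 6 passed the filter on low counts that left 1480 features for testing. The cells had been transfected transiently with 1.5 µg of plasmid per well for RPB1, which is the catalytic subunit of RNA polymerase II (Pol II) and ends in a C-terminal domain (CTD) of heptad repeats, in a version named 52X WT or 52X T4A. In 52X T4A the fourth residue of the CTD heptads, a threonine that can be phosphorylated, is replaced by alanine. From the day after transfection all cells of both groups were kept in α-amanitin, an inhibitor of endogenous Pol II, at 2.5 µg/ml for 72 h, by which time untransfected cells are lost per the labels. There were 2 libraries of each group, described as biological replicates, and no untransfected or unselected cells, so no level from normal HEK293T cells stands beside those of the constructs.

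Most miRNAs are transcribed by Pol II as long primary transcripts, from which the hairpin precursor is cut in the nucleus and the mature strand in the cytoplasm. Each of the 3 clusters joins a miR-99 or miR-100 gene, a let-7 gene and a miR-125 gene, an arrangement found across bilaterian animals. The miR-99/100 family belongs with miR-10 among the oldest animal miRNAs and is known to repress MTOR, a kinase that drives cell growth. The miR-125 family is the vertebrate counterpart of lin-4, the worm miRNA that times larval development, and its known targets include LIN28, a protein that blocks the maturation of let-7.

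The mature sequences are shown because they sort the 6 genes into families and show which copies can share reads. They are from RefSeq (GRCh38.p14), which held mature entries for all 6 genes, and are written 5′ to 3′ with the seed, bases 2 to 8, in capitals. The 5p arms of the miR-99/100 genes share a seed:
hsa-miR-99a-5p: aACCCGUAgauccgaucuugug
hsa-miR-100-5p: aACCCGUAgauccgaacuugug
hsa-miR-99b-5p: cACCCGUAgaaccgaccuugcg
The 5p arms of the miR-125 genes share another seed, and the miR-125b arm is the same at MIR125B1 and MIR125B2:
hsa-miR-125a-5p: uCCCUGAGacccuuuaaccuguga
hsa-miR-125b-5p: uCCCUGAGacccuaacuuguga
The 3p arms tell these 2 genes apart:
hsa-miR-125b-1-3p: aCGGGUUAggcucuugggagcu
hsa-miR-125b-2-3p: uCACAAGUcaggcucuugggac
The let-7 arms of the clusters, shown for the genes that lie between the members, share a seed of their own:
hsa-let-7a-5p: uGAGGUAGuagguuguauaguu
hsa-let-7c-5p: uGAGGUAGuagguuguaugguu
hsa-let-7e-5p: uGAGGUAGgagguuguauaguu

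Counting from 1 at the 5′ end, miR-99a-5p and miR-100-5p differ at a single base (U16A), whereas miR-99a-5p and miR-99b-5p differ at 4 (A1C, U11A, U16C and U21C), none of them within the seed. miR-125a-5p and miR-125b-5p are identical over their first 13 bases. Among the 2370 mature names of the RefSeq table, the miR-99/100 seed occurred in no other entry, and the miR-125 seed in 1 other, miR-4319, whose gene had 0 counts in all 4 libraries. The miR-125b-5p sequence occurred at 2 places in the chromosomes of GRCh37 and let-7a-5p at 3, and each of the other arms of the 6 genes and of the cluster let-7 genes at 1.

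The clusters differ in their span. On chromosome 19 MIR99B (ENSG00000207550.1, 51692612 to 51692681, plus strand, hg38) starts only 642 bases before MIR125A (ENSG00000208008.1, 51693254 to 51693339), with MIRLET7E between them. Both lie within the protein-coding gene SPACA6 on its strand, and in GENCODE v44lift37 MIR125A overlaps an exon of that gene while MIR99B is intronic. On chromosome 11 MIR125B1 (ENSG00000207971.1, 122099757 to 122099844, minus strand) and MIR100 (ENSG00000207994.1, 122152229 to 122152308) are 52472 bases apart, with MIRLET7A2 between them, all in introns of the long noncoding RNA gene MIR100HG. On chromosome 21 MIR99A (ENSG00000207638.1, 16539089 to 16539169, plus strand) lies in an intron of the long noncoding RNA gene MIR99AHG. MIR125B2 (ENSG00000207863.1, 16590237 to 16590325) lies 51148 bases downstream of it and overlaps an exon of that gene. No other listed feature overlapped any of the 6 genes, so their counts were not shared through overlapping annotation.

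Depth was 16180790 and 27370127 counts for 52X T4A and 16195105 and 19159242 for 52X WT, and the 6 genes took between 0.72% and 1.24% of them. The 52X WT libraries differed more from each other than the 52X T4A libraries did, with an SD of the log2 replicate ratio of 0.631 and 0.375 over the 755 tested features that averaged 100 counts or more. No small RNA marks HEK293T cells alone, so miRNAs of other tissues were examined. MIR122 of liver was at or below 0.948 CPM in every library, and MIR142 and MIR223 of white blood cells summed to 0.411 to 1.01 CPM. The 6 genes of miRNAs typical of muscle summed to 81.6 and 96.7 CPM in 52X T4A against 30.5 and 33.1 CPM in 52X WT. MIR133B was at 0 in both 52X WT libraries, and none of the 4 that could be tested was called. MIR451A, MIR144 and MIR486-1 of red blood cells summed to 30.0 to 40.5 CPM against 48.9 to 60.9 CPM in the same order. MIR124 of neurons, summed over its 3 genes, was at 4.36 to 8.05 CPM in 52X T4A against 6.80 to 12.1 CPM in 52X WT, and MIR143 with MIR145 of fibroblasts at 197 to 256 CPM against 197 to 201 CPM. Genes of the same miRNA can share reads, and MIR1-1 and MIR1-2 had 738 and 740 counts in 52X T4A replicate 1. The sums for muscle and neurons may thus hold the same reads more than once. The part of these miRNAs of other tissues in the results below was not tested.

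The miR-99/100 genes had far more reads than the miR-125 genes in every library. Levels are given as CPM, counts per 1000000 reads of a library after scaling by the trimmed mean of M values (TMM). MIR99B was counted 94242 and 226912 times in 52X T4A against 80748 and 115655 times in 52X WT, which correspond to 5954 and 7187 CPM against 5534 and 6144 CPM. Its range in 52X T4A overlapped that in 52X WT. MIR99A was counted 19333 and 57689 times in 52X T4A against 17209 and 27408 times in 52X WT, or 1222 and 1827 CPM against 1179 and 1456 CPM. MIR100 was counted 12689 and 40214 times in 52X T4A against 11836 and 19533 times in 52X WT, or 802 and 1274 CPM against 811 and 1038 CPM. For each of these 3 genes 52X T4A replicate 2 was the highest library and 52X WT replicate 2 was second, so the groups overlapped for all 3.

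The miR-125 genes had fewer reads and another order of libraries. MIR125A was counted 2189 and 5840 times in 52X T4A against 2750 and 2938 times in 52X WT, or 138 and 185 CPM against 188 and 156 CPM. MIR125B2 was counted 2322 and 5426 times in 52X T4A against 2647 and 3032 times in 52X WT, or 147 and 172 CPM against 181 and 161 CPM. MIR125B1 was counted 1144 and 2814 times in 52X T4A against 1379 and 1316 times in 52X WT, or 72.3 and 89.1 CPM against 94.5 and 69.9 CPM. Here 52X WT replicate 1 was the highest library for each gene, 52X T4A replicate 2 was next, and the groups overlapped for all 3.

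**Figure D1:**
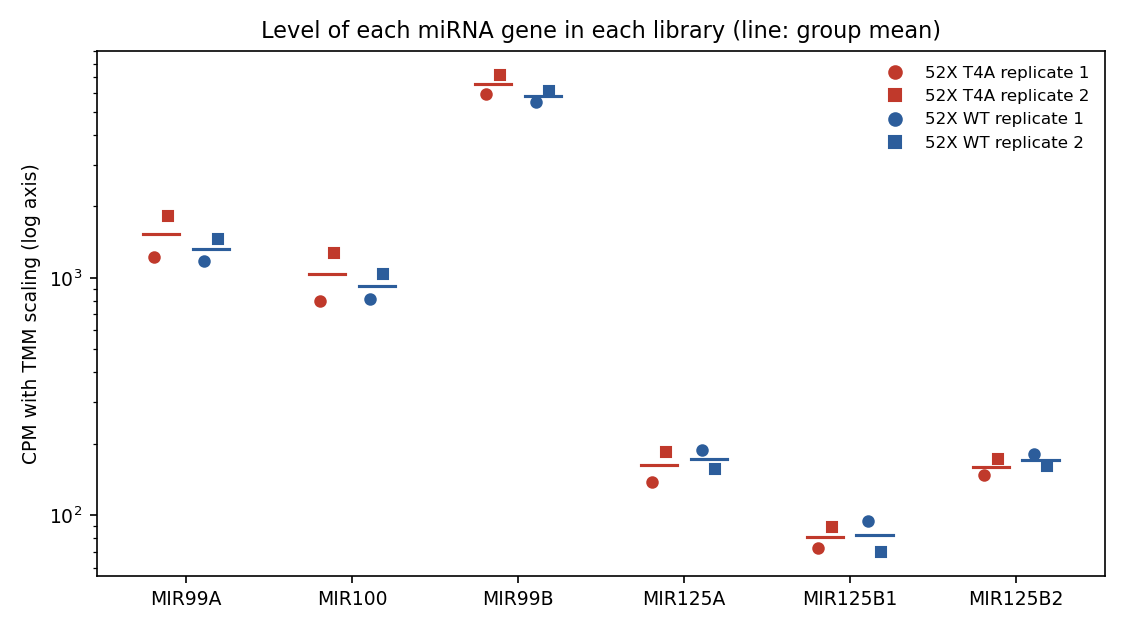
Level of each of the 6 genes in CPM with TMM scaling (log axis) in each library, with circles for replicate 1, squares for replicate 2 and a line at the group mean. MIR99B lies between 5534 and 7187 CPM, and the red points of 52X T4A overlap the blue points of 52X WT for every gene.

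To compare levels between genes, CPM were divided by the length of the listed feature in kilobases. Reads of a mature arm need not be more frequent at a longer feature, so this step can shift levels and ranks between genes. The order of the mean over 4 libraries was MIR99B at 88637 CPM per kilobase, MIR99A at 17543, MIR100 at 12263, MIR125A at 1941, MIR125B2 at 1857 and MIR125B1 at 926. Among the 616 tested miRNA features these levels ranked 22, 48, 57, 116, 119 and 153. MIR99B stood clear of all the others, its lowest library at 79051 CPM per kilobase against 22557 for the highest of MIR99A. MIR99A and MIR100 overlapped in range, at 14559 to 22557 and 10021 to 15921 CPM per kilobase, although MIR99A was above MIR100 within each library. MIR125A and MIR125B2 could not be placed in order, with ranges of 1608 to 2191 and 1648 to 2038 CPM per kilobase. MIR125B1 stayed below both, at 794 to 1074 CPM per kilobase.

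MIR99B alone supplied between 67.0% and 71.4% of the counts of the 6 genes. The 3 miR-125 genes together supplied 4.29% (95% Wilson interval 4.18 to 4.40) and 4.15% (4.09 to 4.22) of them in 52X T4A. For 52X WT the shares were 5.81% (5.68 to 5.95) and 4.29% (4.19 to 4.39). The share was thus nearly the same in 3 libraries and higher in 52X WT replicate 1, a difference beyond counting error, which is all these intervals cover, but between replicates of one group.

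MIR125B1 and MIR125B2 carry the same 5p arm, printed above, and reads of that arm cannot be assigned to one of them by sequence. MIR125B1 held 33.0% (95% Wilson interval 31.5 to 34.6) and 34.2% (33.1 to 35.2) of the pair's counts in 52X T4A. For 52X WT it held 34.3% (32.8 to 35.7) and 30.3% (28.9 to 31.6). The share was lower in 52X WT replicate 2 than in 52X WT replicate 1, a difference beyond counting error. MIR125B1 had the lower count of the pair in all libraries. By contrast the 3 genes of let-7a, which also share a 5p arm, held nearly equal totals of 396222 (MIRLET7A1), 387206 (MIRLET7A2) and 395311 (MIRLET7A3) counts. The 3 genes of MIR124 had near-equal counts too, 23, 23 and 23 in 52X T4A replicate 1 and 84, 84 and 86 in replicate 2. How reads that match several loci were placed is not given in the sources used here. The separate levels of MIR125B1 and MIR125B2 are therefore uncertain, as is that of MIRLET7A2. If a shared read was counted at every matching locus, the shares of this pair and of the miR-125 genes hold some reads more than once. The intervals do not allow for this, and it was not tested.

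Within a cluster the miR-99/100 gene exceeded its miR-125 neighbour in every library. Per length, the level of MIR99B was 52.9 and 47.7 times that of MIR125A in 52X T4A and 36.1 and 48.4 times in 52X WT, although these genes are the closest neighbours of the set. MIR100 was at 12.2 and 15.7 times the level of MIR125B1 per length in 52X T4A and 9.44 and 16.3 times in 52X WT. MIR99A was at 9.15 and 11.7 times the level of MIR125B2 per length in 52X T4A and 7.14 and 9.93 times in 52X WT. Without division by length, MIR99B had 43.1 and 38.9 times the counts of MIR125A in 52X T4A and 29.4 and 39.4 times in 52X WT. In the same order, MIR100 had 11.1 and 14.3 against 8.58 and 14.8 times those of MIR125B1. MIR99A had 8.33 and 10.6 against 6.5 and 9.04 times those of MIR125B2. The ratio was lowest in 52X WT replicate 1 in all 3 clusters, and the groups overlapped in each. Such ratios within a library do not depend on a scaling factor. They are ratios of read counts, and how evenly different miRNAs were captured in a library was not measured.

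**Figure D2:**
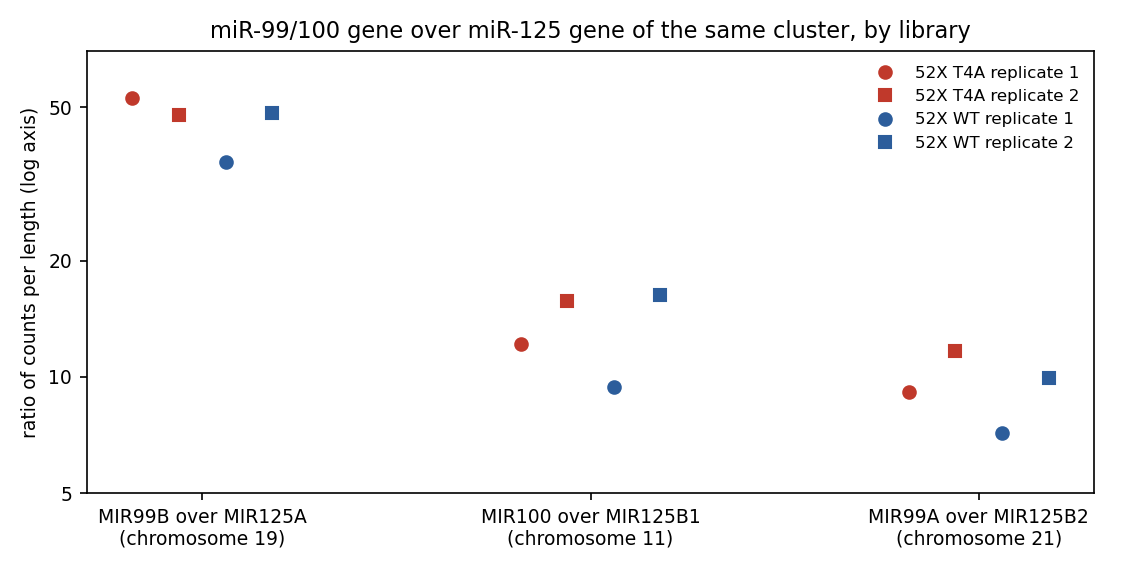
Ratio of the miR-99/100 gene to the miR-125 gene of the same cluster, in counts per length (log axis), for each library of 52X T4A (red) and 52X WT (blue). The ratio runs from 36.1 to 52.9 on chromosome 19, from 9.44 to 16.3 on chromosome 11 and from 7.14 to 11.7 on chromosome 21, with 52X WT replicate 1 lowest in each cluster.

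As log2 of the miR-125 gene over the miR-99/100 gene, the difference between 52X T4A and 52X WT was −0.27 on chromosome 19, −0.16 on chromosome 11 and −0.30 on chromosome 21. The SD between replicates was 0.224, 0.435 and 0.296, so the differences were near or within the replicate spread. In the same order, they were −0.06, 0.24 and −0.06 without 52X WT replicate 1. Without 52X WT replicate 2 they were −0.48, −0.55 and −0.53. On chromosome 11 the difference was 0.03 without 52X T4A replicate 2. No test of these ratios was made, because an exact two-sided permutation test of 2 libraries against 2 cannot give a p below 0.333.

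The comparison of 52X T4A with 52X WT asks whether the level of these miRNA genes differs when the fourth CTD residue cannot be phosphorylated, and no difference was detected for any of the 6. None was called in edgeR's quasi-likelihood test, where a feature was called at a Benjamini-Hochberg adjusted p (FDR) below 0.05 and a fold change above 1.5, and 0.135% of all tested features were called (0.0676% higher in 52X T4A and 0.0676% lower). Among miRNA features 0.325% were called. None of the 6 had an unadjusted p below 0.05 in that test either, against 10.3% of all tested features and 10.7% of miRNA features. The groups overlapped in CPM for all 6 genes, whereas the groups did not overlap for 40.1% of all tested features and 48.2% of miRNA features. In such bulk libraries a change in the number of cells and a change in RNA per cell cannot be told apart.

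The miR-99/100 genes lay slightly above 0. MIR99A had a log2 fold change of 0.21 ± 0.25 (SE), from a mean of 1524 ± 428 CPM in 52X T4A against 1318 ± 196 CPM in 52X WT (SD, n = 2), with an edgeR adjusted p of 0.768. MIR99B, with the most reads, was at 0.17 ± 0.20 (SE), from 6571 ± 872 and 5839 ± 431 CPM (SD, n = 2, edgeR adjusted p 0.765). MIR100 was at 0.17 ± 0.27 (SE), from 1038 ± 334 and 924 ± 160 CPM (SD, n = 2; edgeR adjusted p 0.852). The 95% intervals of edgeR's fit allow a fold of 0.785 to 1.71 for MIR99A, 0.827 to 1.53 for MIR99B and 0.74 to 1.70 for MIR100. Without 52X T4A replicate 2, the highest library of each, MIR99A went to −0.09 and MIR100 to −0.19, and without 52X WT replicate 1 they were −0.01 and −0.08.

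The miR-125 genes lay slightly below 0. MIR125A had a log2 fold change of −0.09 ± 0.27 (SE), from 162 ± 33 against 172 ± 22.9 CPM (SD, n = 2; edgeR adjusted p 0.945). MIR125B2 was at −0.10 ± 0.25 (SE), from 159 ± 17.8 and 171 ± 14.4 CPM (SD, n = 2; edgeR adjusted p 0.922). MIR125B1 was at −0.03 ± 0.29 (SE), from 80.7 ± 11.9 and 82.2 ± 17.4 CPM (SD, n = 2; edgeR adjusted p 0.984). The 95% intervals allow a fold of 0.619 to 1.42 for MIR125A, 0.63 to 1.37 for MIR125B2 and 0.625 to 1.54 for MIR125B1. Summed into 1 feature, MIR125B1 and MIR125B2 had a log2 fold change of −0.08. These signs are not stable: with library size alone as scaling MIR125A, MIR125B1 and MIR125B2 stood at 0.11, 0.17 and 0.09, in a setting whose median over the tested features was 0.14 rather than −0.05. Changes smaller than these intervals were not detectable with 2 libraries a group.

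In all, 3 of the 6 genes had a log2 fold change above 0 and 3 below, with a median of 0.07, while 46.1% of all tested features and 48.1% of tested miRNA features were above 0 and the median was −0.05 over all and −0.02 over miRNAs.

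The pattern over the 4 libraries was closer within a seed family than within a cluster, but this rested on a single library. For each gene log2 CPM was centred on its mean over the 4 libraries, and pairs of genes were compared by the root mean square (RMS) of the difference, a measure over 4 points given as a description. The 6 pairs of the same family, which all lie on different chromosomes, differed by 0.0435 to 0.158. The 9 pairs from different families differed by 0.178 to 0.318, and the 3 of these that share a cluster by 0.207 to 0.318. MIR99A and MIR100, a single base apart in the 5p arm, were the closest pair, and MIR100 and MIR125B1, which share a cluster, the most distant. Without 52X WT replicate 1 the separation was gone, at 0.0502 to 0.173 within families and 0.0528 to 0.187 between them, whereas it was kept when each of the other libraries was left out in turn. It was also kept with MIR125B1 left out, a check made because the genes of miR-125b can share reads. Sharing of reads between MIR99A and MIR100, whose 5p arms differ at a single base, was not checked.

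**Figure D3:**
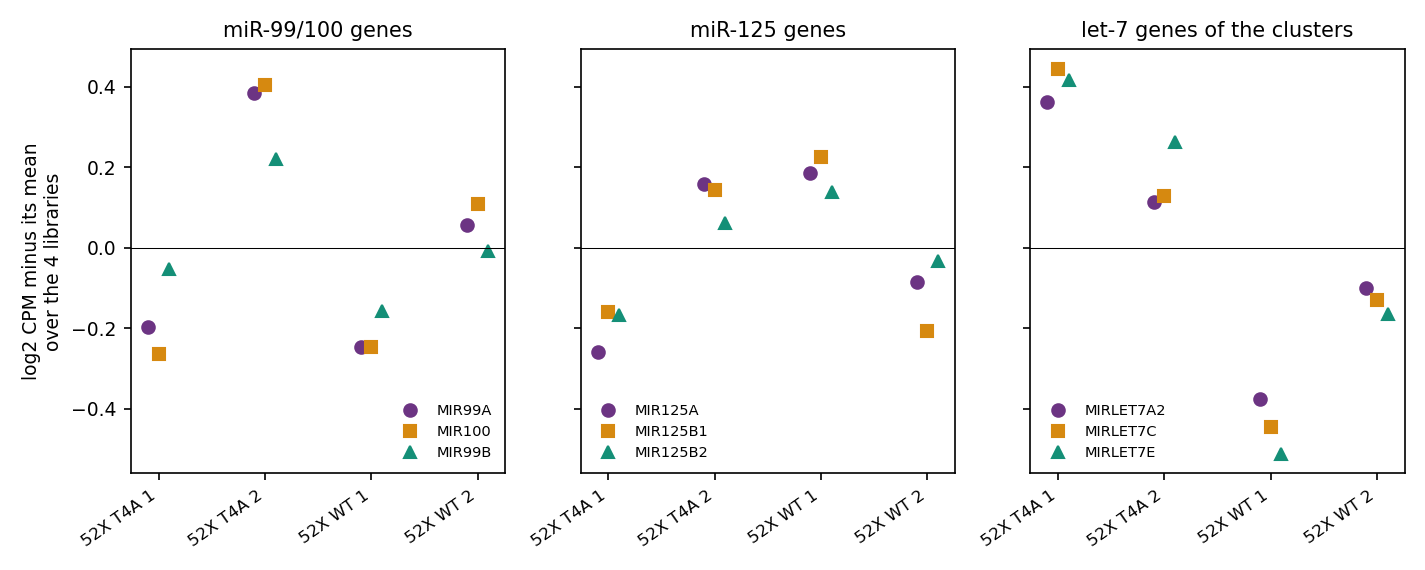
Log2 CPM of each gene minus its own mean over the 4 libraries, for the miR-99/100 genes, the miR-125 genes and the let-7 genes of the same clusters. In 52X WT replicate 1 the miR-99/100 genes lie at −0.25 to −0.16, the miR-125 genes at 0.14 to 0.23 and the let-7 genes at −0.51 to −0.38.

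**Figure D4:**
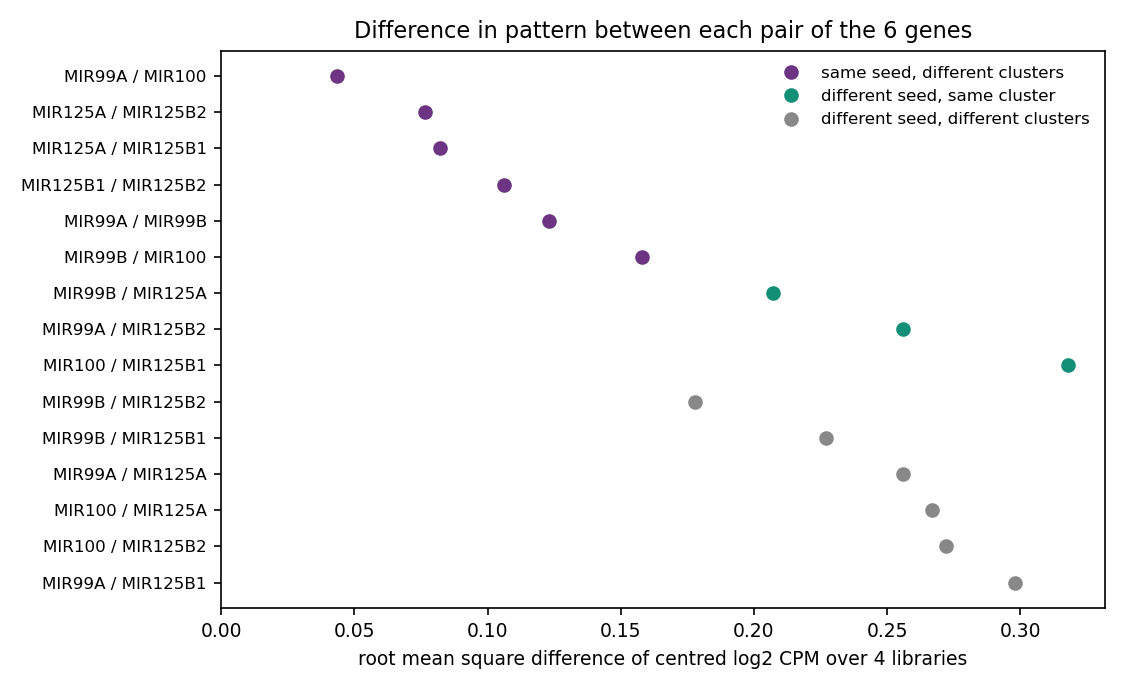
RMS difference of centred log2 CPM over 4 libraries for the 15 pairs of the 6 genes. The 6 pairs with the same seed (purple) lie at 0.0435 to 0.158, and pairs with different seeds lie at 0.178 to 0.318 whether they share a cluster (green) or not (grey).

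Over tested features averaging 100 counts or more, the nearest to MIR99A was MIR100, and the nearest to MIR100 was MIR99A, at an RMS difference of 0.0435, followed for both by MIR1306 at 0.0699 and 0.112. Nearest to MIR99B were MIR378D1 at 0.0364 and MIR760 at 0.0608. Nearest to MIR125A were a feature named Y_RNA (ENSG00000207383.1) at 0.0181 and MIR2110 at 0.0283. MIR125B1 was nearest to MIR365A at 0.0459 and MIR2110 at 0.0565, and MIR125B2 to MIR10B at 0.0402 and MIR15B at 0.046. With 754 candidates for each gene and only 4 libraries, distances of this size are read as a description only. The median distance to all candidates was between 0.282 and 0.419.

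The let-7 gene lying between the members of each cluster had another pattern again, with both 52X T4A libraries above both 52X WT libraries. MIRLET7E was at 896 and 805 CPM in 52X T4A against 471 and 599 CPM in 52X WT, with a log2 fold change of 0.67 ± 0.23 (SE). MIRLET7C was at 1237 and 994 CPM against 667 and 830 CPM, at 0.57 ± 0.23 (SE). MIRLET7A2 was at 5973 and 5027 CPM against 3583 and 4337 CPM, at 0.47 ± 0.21 (SE). None of the 3 was called, with edgeR adjusted p of 0.395, 0.421 and 0.467, and features whose groups did not overlap and were higher in 52X T4A made up 18.9% of those tested. Their unadjusted p in edgeR's test were 0.0159, 0.0322 and 0.0454, where 10.3% of all tested features were below 0.05. Over the alternatives the 3 log2 fold changes stayed between 0.24 and 0.86, and their lowest adjusted p in edgeR or DESeq2 was 0.0641.

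**Figure D5:**
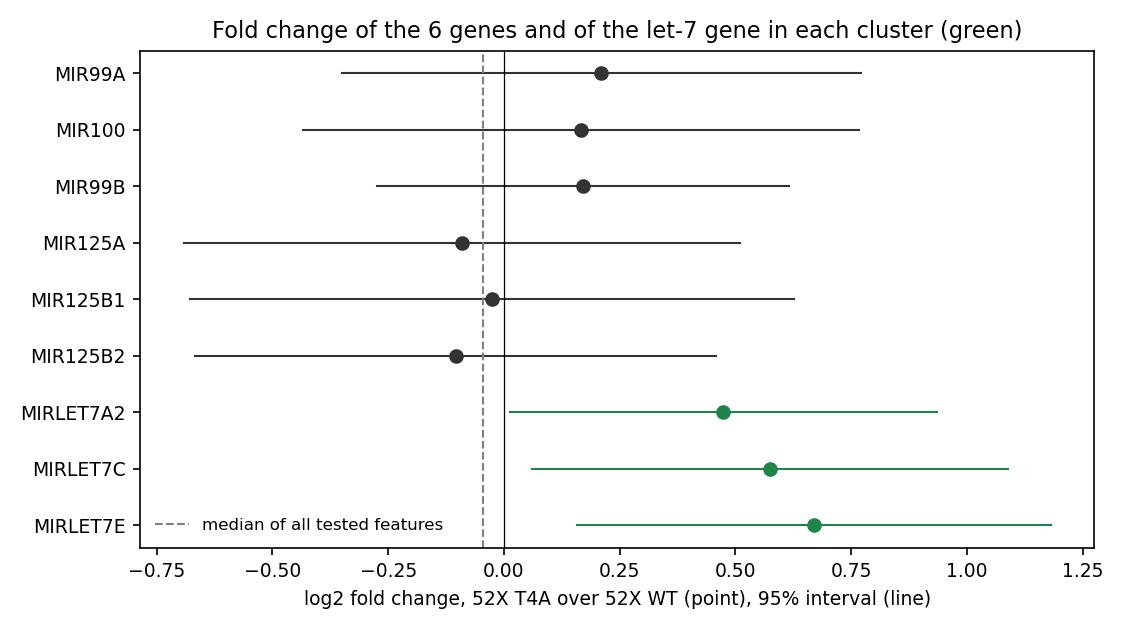
Log2 fold change of 52X T4A over 52X WT with the 95% interval of edgeR's fit for the 6 genes (black) and for the let-7 gene of each cluster (green), with the median of all tested features as a dashed line. The 6 genes lie between −0.10 and 0.21 with intervals across 0, and the let-7 genes between 0.47 and 0.67 with intervals above 0. The intervals are not adjusted for the number of features tested. None of the genes was called.

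Within libraries, the let-7 gene was thus compared with its neighbours of the same cluster without any scaling. On chromosome 19 the log2 ratio of the counts of MIRLET7E to those of MIR99B was −2.73 and −3.16 in 52X T4A and −3.56 and −3.36 in 52X WT, and the groups did not overlap. The ratio of MIRLET7E to MIR125A was 2.69 and 2.12 in 52X T4A and 1.32 and 1.94 in 52X WT, again without overlap. On chromosome 21 the ratio of MIRLET7C to MIR125B2 was 3.08 and 2.53 in 52X T4A and 1.88 and 2.37 in 52X WT, without overlap, whereas that of MIRLET7C to MIR99A overlapped, at 0.02 and −0.88 against −0.82 and −0.81. On chromosome 11 the ratio of MIRLET7A2 to MIR100 overlapped as well, at 2.90 and 1.98 against 2.14 and 2.06. The ratio of MIRLET7A2 to MIR125B1 overlapped too. It was higher in 52X WT replicate 2 (81651 against 1316 counts) than in 52X T4A replicate 2 (158725 against 2814). These ratios were not tested. Among single features, those without overlap in either direction made up 40.1% of those tested.

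Of the 7 other autosomal let-7 genes, all tested, 6 had a log2 fold change above 0 and none was called, with a median of 0.44 and a smallest edgeR adjusted p of 0.467. Those with the most reads were MIRLET7A1, MIRLET7A3 and MIRLET7F1, at 0.47, 0.47 and 0.44. The first 2 of these cannot be told from MIRLET7A2 by the 5p arm. MIRLET7B was at 0.59, whereas MIRLET7D, MIRLET7G and MIRLET7I were near 0, at −0.07, 0.04 and 0.0014. The miR-10 genes are relatives of miR-99/100 by sequence, miR-100-5p and miR-10a-5p sharing a run of 11 bases. MIR10A and MIR10B, at 1014200 and 968470 CPM per kilobase, were far above every miR-99/100 gene, with log2 fold changes of −0.20 ± 0.18 and −0.17 ± 0.18 (SE), and neither was called (edgeR adjusted p 0.676 and 0.729). The groups overlapped for MIR10B but not for MIR10A, which was lower in both 52X T4A libraries. Features lower in 52X T4A without overlap made up 21.2% of those tested.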

How the data were processed

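Small RNA of 2 libraries each of 52X T4A and 52X WT cells was analysed. The authors deposited raw read counts per feature for each library, not normalized. The submitters' processing notes name cutadapt 4.6, Bowtie2 2.3.5.1, featureCounts 1.5.0 and hg38. The settings, the annotation and the placement of reads that match several loci are not given in the sources used here. Counts cover a whole precursor, so its arms are not separated. Symbols came from GENCODE v44lift37 by Ensembl identifier (5579 features) or an identical RefSeq position (908), and 575 features kept their identifiers. Coordinates are those of the deposited tables.

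The test across all features was edgeR 4.0.16 under R 4.3.3 (quasi-likelihood fit, filterByExpr at a minimum count of 10, TMM factors, Benjamini-Hochberg adjustment over 1480 features), and the script was checked on simulated counts. The SE is the log2 fold change divided by the square root of F. DESeq2 1.42.0, other scalings, filters, a replicate block and removal of each library were alternatives. Named were the 6 genes, the cluster let-7 genes, the other autosomal let-7 genes, up to 3 of each further list and the 2 nearest patterns per gene. Members and lists were chosen with earlier results of these data known.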

Additional observations from a re-analysis of the deposited data

How the results depend on the processing

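None of the 6 genes was called under any alternative run. Of 86 values of their log2 fold changes, 70 kept their direction and 16 changed sign. With all 4 libraries the sign changed for MIR125A (upper quartile factors 0.0862, library size alone 0.11), MIR125B2 (0.0678 and 0.0876) and MIR125B1 (0.15 and 0.17, RLE factors 0.015, no filter 0.0091, DESeq2 5e-04). Leaving out a library gave −0.0932 to 0.45 for MIR99A, −0.19 to 0.45 for MIR100, −0.30 to 0.0876 for MIR125A and −0.23 to 0.12 for MIR125B1, while MIR99B stayed at 0.01 to 0.28 and MIR125B2 at −0.21 to −0.01. The median of all tested features was −0.05, 0.13 with upper quartile factors and 0.14 with library size alone. The cause was not tested.

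The number of called features was 2 of 1480, 9 with library size alone, 29 without a filter and 28 with DESeq2. With the replicate number as a block it was 18, none of them among the 6 genes. Same-numbered libraries deviated together by a correlation of 0.0946 only, and nothing in the labels ties them to a shared day or culture. It was 6 without 52X T4A replicate 1, 4 without 52X T4A replicate 2, 35 once 52X WT replicate 1 was left out and 218 once 52X WT replicate 2 was, where edgeR assumes that the lone library of a group varies like the others. The comparisons of the let-7 genes and of the families under alternatives were chosen after seeing the data.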
